A study of Mus musculus with 9 samples.

Results

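Glucose handling by the kidney was followed through 8 genes in single-cell RNA libraries of mouse kidney: the sodium-glucose cotransporters Slc5a2 (SGLT2) and Slc5a1 (SGLT1), the facilitative transporters Slc2a2 (GLUT2) and Slc2a1 (GLUT1), and the gluconeogenic genes Pck1, Fbp1, G6pc and Slc37a4. The genes were chosen by name, and all 8 were listed, under these symbols, in the count matrices of all 9 mice, which together listed 32427 genes. Control mice received saline, AKI-CKD mice received 4 weekly intraperitoneal injections of cisplatin at 8 mg/kg, and the mice of the AKI-CKD + EGT group, EGT mice for short, received the same cisplatin plus ergothioneine (EGT), a diet-derived thiol antioxidant, at 0.5 mg/mL in their drinking water (about 100 mg/kg per day) from 3 days before the first injection to the end. All were male C57BL/6 mice, 6 weeks old at the start, with 3 mice per group and kidneys taken after 8 weeks. Each library came from kidney tissue of 1 mouse, so the mouse is the replicate throughout.

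The proximal tubule (PT) takes back nearly all filtered glucose. In its early S1/S2 segments, SGLT2 carries glucose into the cell with sodium and GLUT2 releases it to the blood, and SGLT1 recovers most of what is left in the late S3 segment. The same cells make glucose: Pck1 (cytosolic phosphoenolpyruvate carboxykinase) and Fbp1 (fructose-1,6-bisphosphatase) act in the cytosol, Slc37a4 carries glucose-6-phosphate into the endoplasmic reticulum, and G6pc (the glucose-6-phosphatase catalytic subunit) frees the glucose there. GLUT1 carries glucose into cells of later tubule segments.

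The matrices held 70106161 to 101525691 UMIs (unique molecular identifiers, which count captured RNA molecules) per mouse, and 196925 of 216680 barcodes passed the filters, with a median of 2714 UMIs. Cells were clustered without the 8 genes or any other gene of the glucose lists below, and clusters were named from markers. Named PT clusters held 164456 cells, which were divided into S1/S2-like clusters, clusters high in Slc7a13 (an S3 amino acid transporter), clusters between them, and 1 small S3-like cluster of 606 cells, with 20 to 139 cells per mouse. A further cluster of 4768 cells led by haemoglobin genes also had 11 of 12 PT markers raised and was left unnamed. The Slc7a13-high clusters had 6 of 9 S3 markers raised, without Cyp7b1, Bcat1 and Slc22a19, and are therefore named by Slc7a13 alone. Barcode names were running numbers, so that the 62337 names found in more than 1 library carry no identity of cells. The mitochondrial limit removed 0.909% of cells in Control mouse 3 and 27.7% in EGT mouse 3, and Control mouse 1 had high Pck1, Irs2 and Txnip in PT cells, as given below.

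RNA of these genes was also found in T and B lymphocytes, which do not make glucose or take it up by SGLT2. Whether it came from free RNA or from doublets, which were kept, was not tested. T and B cells had 60.4% ± 8.17 (SD, n = 9 mice) of the PT level of Slc5a2, 57.0% ± 14.8 of Slc2a2 and 54.7% ± 9.19 of Pck1. Their shares of the PT level were also close for G6pc (56.3% ± 7.02), Fbp1 (56.8% ± 5.54) and Slc37a4 (59.7% ± 8.85), while Slc5a1 varied widely (68.6% ± 37.2, range 15.1 to 134%). For Slc2a1, T and B cells were at 213% ± 133 of the PT level (range 58.4 to 414%), above PT cells in 7 of 9 mice, and the difference did not pass (adjusted p = 0.0750, exact test). Lymphocytes use GLUT1 themselves, so that for this gene they serve as a reference level and not as a background. Levels of a cell type are therefore read against T and B cells of the same mouse, in CPM, the gene's share of all UMIs of the summed cells (counts scaled to the same total in every population), with a pseudocount of 1 CPM in ratios and an exact two-sided sign-flip permutation test over mice. With 9 mice the smallest p this test can give is 0.00391, and p-values were adjusted by Benjamini-Hochberg over 144 such comparisons. The T and B levels of Slc5a1 and Slc2a1 rest on 47 and 65 UMIs over all 9 mice, so that ratios to them are imprecise. The T and B level is also not a floor. In DCT (distal convoluted tubule), principal and intercalated cells, Slc5a2, G6pc, Fbp1 and Slc37a4 were above it in 0 of 9 mice. The ratios there ran from 0.508-fold to 0.643-fold. A level not distinguishable from that of T and B cells is therefore not shown to be without RNA of the cells' own.

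**Figure D1:**
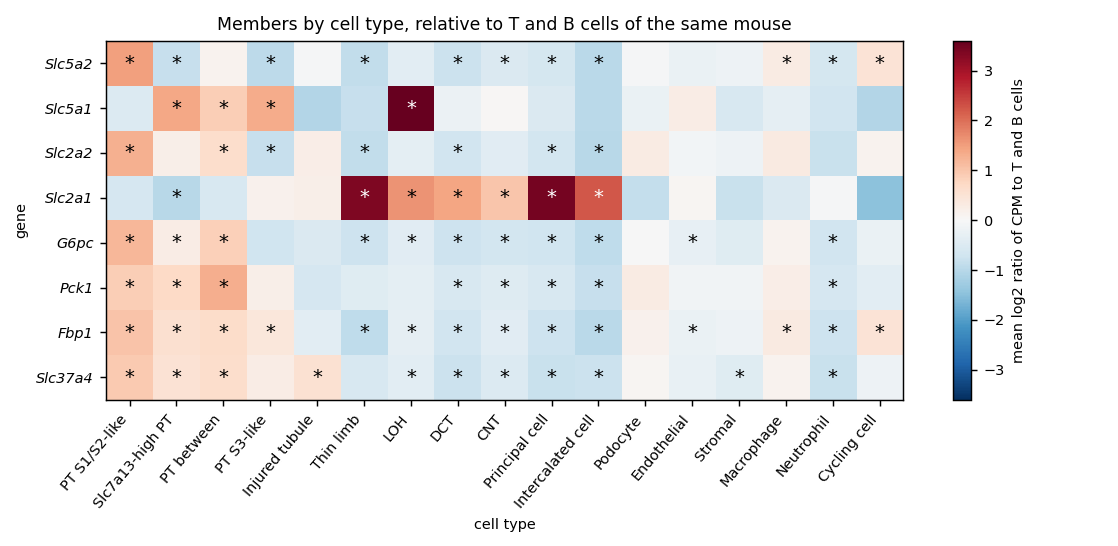
Mean log2 ratio of CPM in each cell type (x axis) to CPM in T and B cells of the same mouse, for each of the 8 genes (y axis), with red above and blue below; asterisks mark adjusted p under 0.05 in the exact sign-flip test. Slc5a1 is highest in LOH, Slc2a1 in principal cells and thin limb, and the other genes in PT cells.

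Slc5a2 was raised above the lymphocyte level in PT S1/S2-like cells. Its level there was 856 ± 82.99 CPM (SD, n = 9 mice), 2.79-fold that of T and B cells and higher in 9 of 9 mice (adjusted p = 0.01125, exact test). The next type in the order was cycling cells at 446 ± 120 CPM, 1.41-fold the T and B level in 9 of 9 mice (adjusted p = 0.01125, exact test), and macrophages passed as well, at 1.23-fold in 8 of 9 mice (adjusted p = 0.0163, exact test). The PT clusters between the segments had 345 ± 82.9 CPM, not distinguishable from the T and B level (higher in 8 of 9 mice, adjusted p = 0.238, exact test). In Slc7a13-high PT cells Slc5a2 was at 178 ± 49.4 CPM, below T and B cells in 9 of 9 mice. It was likewise below them in DCT (distal convoluted tubule), principal and intercalated cells in every mouse.

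Slc5a1 had another place. Its highest level was in LOH (loop of Henle) cells of the thick ascending limb, at 112 ± 33.3 CPM (SD, n = 9 mice), 12.2-fold that of T and B cells (higher in 9 of 9 mice, adjusted p = 0.01125, exact test). Slc7a13-high PT cells (22.8 ± 4.40 CPM) and S3-like PT cells (24.2 ± 11.9 CPM) followed, at 2.64-fold and 2.54-fold the T and B level, with adjusted p = 0.01125 and 0.0163 in the exact tests over 9 mice. LOH stood above S3-like cells in 9 of 9 mice, and the S3-like and Slc7a13-high levels did not differ beyond their spread (higher in S3-like cells in 5 of 9 mice, adjusted p = 1 over 144 neighbouring pairs, exact test). In PT S1/S2-like cells Slc5a1 was at 5.50 ± 1.68 CPM, 0.708-fold the T and B level and not distinguishable from it (adjusted p = 0.175, exact test, 9 mice).

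LOH cells fell into 3 clusters that differed in Slc5a1. Cluster 18, with 889 cells, had 199 ± 44 CPM, cluster 14, with 3000 cells, had 121 ± 54 CPM, and cluster 17, with 1224 cells, had 24.8 ± 15 CPM (SD over mice). All 8 LOH markers were raised in each of the 3 clusters against other cells, but not to the same level. In Control mouse 1, for example, Umod was at 644 CPM in cluster 17 against 5150 and 6526 in clusters 14 and 18, and Slc12a1 at 141 against 1221 and 3564, so that Slc5a1 was lowest where these LOH markers were lowest. Genes highest in PT cells were highest in cluster 17 by mean. Fbp1 was at 726 CPM there against 510 and 482 in clusters 14 and 18, Pck1 at 452 against 303 and 334, and Slc5a2 at 301 against 218 and 239. The part of PT RNA or of doublets in the Slc5a1 differences was not tested. After thinning each cell to 1000 UMIs, 10.5% ± 3.90 of LOH cells held a Slc5a1 UMI, against 0.389% ± 0.501 of T and B cells and 1.27% ± 0.265 of PT cells (SD, n = 9 mice). Without thinning the shares were 19.99%, 2.63% and 4.57%, with median depths per mouse of 1818 to 2286 UMIs in LOH, 1826 to 3010 in T and B and 2568 to 2987 in PT cells.

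The facilitative transporters were placed in different parts of the nephron. Slc2a2 was at 161 ± 15.3 CPM in PT S1/S2-like cells, 2.45-fold the T and B level, and at 101 ± 13.2 CPM in the clusters between, 1.54-fold it, both higher in 9 of 9 mice (adjusted p = 0.01125, exact test). In Slc7a13-high PT cells it was at 75.2 ± 5.51 CPM, which was not distinguishable from T and B cells (1.15-fold, 5 of 9 mice, adjusted p = 0.305, exact test). S3-like cells had 37.8 ± 13.3 CPM of Slc2a2, below T and B cells in 8 of 9 mice.

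Slc2a1 was highest in principal cells of the collecting duct, at 111 ± 19.0 CPM, and in thin limb cells, at 103 ± 39.9 CPM, followed by intercalated cells at 50.1 ± 19.3 CPM (SD, n = 9 mice, 8 for thin limb). These were 10.9-fold, 10.4-fold and 4.75-fold the T and B level (adjusted p = 0.01125, 0.0163 and 0.01125, exact tests over 9, 8 and 9 mice). LOH (31.1 ± 7.88 CPM), DCT (27.0 ± 7.34 CPM) and connecting tubule cells (20.1 ± 5.76 CPM) were 3.07-fold, 2.67-fold and 1.99-fold it, each in 9 of 9 mice. In the order of levels, principal and thin limb cells did not differ beyond their spread (5 of 8 mice, adjusted p = 0.942, exact test). Thin limb stood above intercalated cells in 8 of 8 mice, at the smallest p that 8 mice can give (0.00781, adjusted to 0.0804 over 144 pairs, exact test). LOH above DCT (6 of 9 mice, adjusted p = 0.394, exact test) and DCT above connecting tubule (8 of 9 mice, adjusted p = 0.211, exact test) did not pass. The step from intercalated cells to LOH passed (adjusted p = 0.0469, exact test, 9 of 9 mice). PT cells had 5.24 ± 1.38 CPM of Slc2a1, beside 10.97 ± 6.56 CPM in T and B cells.

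The 4 gluconeogenic genes were raised above T and B cells in S1/S2-like cells, the clusters between and Slc7a13-high cells, and Fbp1 alone also passed in S3-like cells. Fbp1 was highest in S1/S2-like cells at 1420 ± 164 CPM and stood above T and B cells in all 4 PT populations, from 2.05-fold in S1/S2-like to 1.33-fold in S3-like cells, in 9 of 9 mice each (adjusted p = 0.01125, exact tests). G6pc was at 555 ± 147 CPM in S1/S2-like cells, 444 ± 116 in the clusters between and 295 ± 69.7 in Slc7a13-high cells, which were 2.27-fold, 1.82-fold and 1.22-fold the T and B level. Slc37a4 followed the same order, with 187 ± 24.4 CPM in S1/S2-like cells (1.93-fold), 151 ± 27.8 in the clusters between and 139 ± 20.7 in Slc7a13-high cells (1.44-fold). By mean, Pck1 had another order, at 1031 ± 321 CPM in the clusters between, 771 ± 220 in S1/S2-like and 690 ± 248 in Slc7a13-high cells, at 2.46-fold, 1.85-fold and 1.63-fold the T and B level, but the step from the clusters between to S1/S2-like cells did not pass (8 of 9 mice, adjusted p = 0.0804, exact test). The clusters between were not alike, and of them only cluster 8 exceeded the S1/S2-like mean of Pck1, as given below. In S3-like cells G6pc was at 0.610-fold the T and B level (above it in 2 of 9 mice, adjusted p = 0.0529, exact test), and Slc37a4 at 1.20-fold (7 of 9 mice, adjusted p = 0.115, exact test) and Pck1 at 1.17-fold (5 of 9 mice, adjusted p = 0.198, exact test) were not distinguishable from it. Among cell types not named PT, Slc37a4 was above T and B cells in injured tubule cells (1.47-fold, 8 of 8 mice, adjusted p = 0.0163, exact test) and Fbp1 in cycling cells (1.41-fold, 9 of 9 mice) and macrophages (1.26-fold, 8 of 9 mice). Injured tubule and cycling cells were named by injury and cell cycle markers, and whether they were of PT origin was not tested.

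Profiles across the 19 cell types were compared by Pearson's r of mean log2(CPM + 1), as a description, since the cell types share libraries. Between members r was highest for G6pc with Slc2a2 (0.909) and with Pck1 (0.901). Slc2a2 with Pck1 had 0.734, Slc5a2 with Slc2a2 0.871, Fbp1 with G6pc and Pck1 0.855 each, and Fbp1 with Slc37a4 0.853. Slc5a1 had r of -0.17 to 0.22 with the other 7 genes, and Slc2a1 had r of -0.81 with Fbp1 and -0.72 with Slc2a2. Among 13005 genes, the profile most like that of Slc5a2 was Slc7a7 (0.977), followed by Clec2h and Cyp2d26. Slc2a2 was closest to Maf (0.959), Slc4a4 and Prodh2, and G6pc to Cyp2d12 (0.968), Ass1 and Hsd3b2. Pck1 was closest to Tmem252 (0.958), Miox and Gm39079, Fbp1 to Cryl1 (0.981), Hnf4a and Lrp2, and Slc37a4 to Neu1 (0.948) and Slc13a1. Slc5a1 was closest to Gm15889 (0.861), the thick limb claudin Cldn10 (0.834) and Tmem207, and Slc2a1 to Gm12868 (0.958) and Rnf43. Slc7a7 and Slc4a4 are S1/S2 markers, and Miox, Lrp2 and Cldn10 are PT or LOH markers, that were used to name the cells.

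The promoters of G6pc and of the 2 members with the highest r to it are shown because G6pc and Pck1 are textbook targets of hepatocyte nuclear factor 1 and of cAMP signalling. They are the 250 bases before the start site, 5′ to 3′ on the gene's strand, from RefSeq on build GRCm38.p6, which is another build than the GRCm39 of the count files. They lie at chr11:101367466-101367715 (G6pc), chr2:173152823-173153072 (Pck1) and chr3:28697653-28697902 (Slc2a2), all on the plus strand. Capitals mark the core GTTAAT of the HNF1 motif (ATTAAC on the other strand) and the core TGACGT of the cAMP response element (ACGTCA on the other strand). Both strands were searched, and the 2 cores do not overlap in these windows.
G6pc: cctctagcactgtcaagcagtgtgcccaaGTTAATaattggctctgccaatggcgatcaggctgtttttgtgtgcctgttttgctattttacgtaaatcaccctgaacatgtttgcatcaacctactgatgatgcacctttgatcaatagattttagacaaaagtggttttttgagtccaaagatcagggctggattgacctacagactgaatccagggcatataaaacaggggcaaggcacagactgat
Pck1: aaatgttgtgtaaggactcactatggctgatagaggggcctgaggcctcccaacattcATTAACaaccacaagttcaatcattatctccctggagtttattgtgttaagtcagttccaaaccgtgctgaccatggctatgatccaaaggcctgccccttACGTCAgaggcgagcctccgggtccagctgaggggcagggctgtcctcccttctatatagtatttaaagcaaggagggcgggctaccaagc
Slc2a2: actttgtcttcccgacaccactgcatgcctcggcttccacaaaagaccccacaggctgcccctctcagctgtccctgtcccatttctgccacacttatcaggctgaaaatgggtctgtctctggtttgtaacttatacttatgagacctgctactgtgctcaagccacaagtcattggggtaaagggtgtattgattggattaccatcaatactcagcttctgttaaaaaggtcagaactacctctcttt
The HNF1 core stood at -221 to -216 from the start site in G6pc and at -192 to -187 in Pck1, and the cAMP core stood at -91 to -86 in Pck1. Neither was found in the Slc2a2 window. Of 32851 RefSeq windows of the same length, 6.43% held the HNF1 core and 6.47% the cAMP core. Of the 8 genes, 7 had an entry, and Slc37a4 held the cAMP core in overlapping windows of 2 start sites. Only these exact cores were searched, so that a window without a match may still hold a variant site. These matches describe letters and do not show binding.

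Within the PT, all 8 genes differed between S1/S2-like and Slc7a13-high cells in all 9 mice. The clusters were drawn without these genes but from other genes of the same cells, so the p-values measure how steady a difference was over mice. The exact two-sided sign-flip test gave p = 0.00391, the smallest possible, for each gene, and an adjusted p of 0.00391 over the 8 genes. Slc5a2 was 4.94-fold higher in S1/S2-like cells, and in Slc7a13-high cells it lay below T and B cells. Slc5a1 went the other way, 3.73-fold higher in Slc7a13-high cells. Slc2a2 was 2.13-fold and G6pc 1.87-fold higher in S1/S2-like cells, Fbp1 1.37-fold, Slc37a4 1.34-fold and Pck1 1.14-fold. Slc2a1 was 1.33-fold higher there, at a level not distinguishable from T and B cells (adjusted p = 0.135, exact test, 9 mice). In Slc7a13-high cells Slc2a1 was at 0.496-fold the T and B level, above it in 1 of 9 mice (adjusted p = 0.0163, exact test).

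Slc5a2 by mouse was as follows. In S1/S2-like cells it was at 869, 780 and 809 CPM in Control mice 1 to 3, 890, 1025 and 832 CPM in AKI-CKD mice, and 915, 741 and 847 CPM in EGT mice. In Slc7a13-high cells it was at 195, 142 and 111 CPM, 175, 281 and 148 CPM, and 194, 148 and 205 CPM in the same order. The lowest S1/S2-like value, in EGT mouse 2, exceeded the highest Slc7a13-high value, in AKI-CKD mouse 2, and the populations did not overlap in any group. After thinning, 51.8% ± 3.66 of S1/S2-like cells and 15.2% ± 3.77 of Slc7a13-high cells held a Slc5a2 UMI, against 17.6% ± 4.65 of T and B cells (SD, n = 9 mice). Without thinning these shares were 78.2%, 34.3% and 33.9%, at median depths per mouse of 2578 to 3266, 2261 to 3328 and 1826 to 3010 UMIs.

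Slc5a1 in S1/S2-like cells was at 5.58, 5.77 and 5.45 CPM in Control mice, 5.74, 2.33 and 5.65 CPM in AKI-CKD mice, and 5.29, 4.74 and 8.91 CPM in EGT mice. In Slc7a13-high cells it was at 19.9, 21.0 and 26.3 CPM, 25.1, 16.7 and 26.0 CPM, and 29.3, 24.1 and 16.9 CPM. Every mouse had more Slc5a1 in its Slc7a13-high cells, with the smallest difference in EGT mouse 3.

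**Figure D2:**
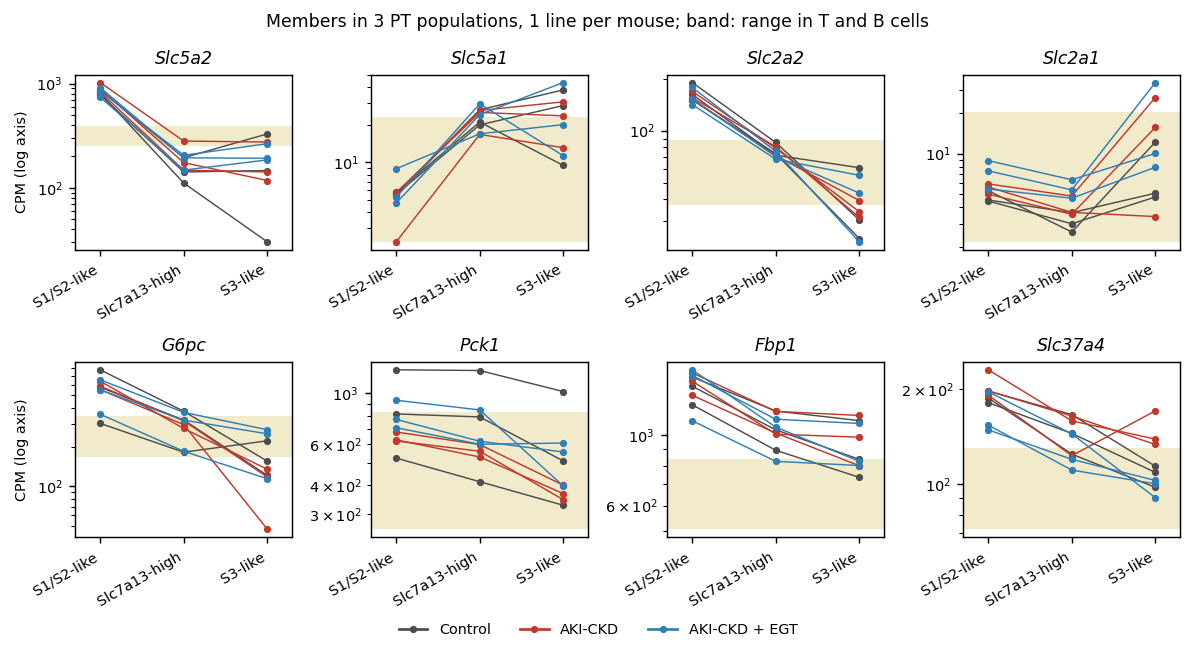
CPM (log axis) of the 8 genes in S1/S2-like, Slc7a13-high and S3-like PT cells, with 1 line per mouse coloured by group and a band for the range in T and B cells. Slc5a2 drops and Slc5a1 climbs from S1/S2-like to Slc7a13-high cells in all 9 mice, and S3-like values of Slc2a2 and G6pc lie within or under the band.

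Against the small S3-like cluster the order was the same for 7 genes. Slc5a2 was 5.34-fold, Slc2a2 4.38-fold, G6pc 3.72-fold, Slc37a4 1.60-fold, Pck1 1.58-fold and Fbp1 1.54-fold higher in S1/S2-like cells in 9 of 9 mice, and Slc5a1 was 3.58-fold higher in S3-like cells in 9 of 9 mice (adjusted p = 0.00446 each, exact test). Slc2a1 was the exception to the comparison with Slc7a13-high cells, being 1.69-fold higher in S3-like cells in 8 of 9 mice (adjusted p = 0.0430, exact test), a call that was lost when any of 7 mice was left out and whose S3-like level, 13.2 ± 10.5 CPM, was not distinguishable from T and B cells (adjusted p = 0.729, exact test, 9 mice). S3-like cells lay under T and B cells for Slc5a2 and Slc2a2 in 8 of 9 mice each and were not distinguishable from them for Pck1 (1.17-fold, adjusted p = 0.198, exact test, 9 mice).

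Single PT clusters showed that Pck1 and G6pc did not follow Slc5a2 alone. Pck1 was highest in cluster 8, at 1231 ± 363 CPM, then in S1/S2-like cluster 10 at 1047 ± 245 CPM and in Slc7a13-high cluster 6 at 972 ± 361 CPM, against 537 ± 186 CPM in Slc7a13-high cluster 4 (SD over mice). G6pc was highest in S1/S2-like clusters 7 (679 ± 182 CPM) and 10 (653 ± 193 CPM), and was higher in Slc7a13-high cluster 6 (431 ± 101 CPM) than in S1/S2-like cluster 2 (345 ± 86.0 CPM) by mean. Slc5a2 was at 642 to 982 CPM in the 4 S1/S2-like clusters and 146 to 209 CPM in the 4 Slc7a13-high clusters. Clusters 8, 3 and 12 are the clusters between, and they were not alike. In this order they had 1231, 681 and 578 CPM of Pck1, 510, 290 and 319 CPM of G6pc, and 166, 101 and 131 CPM of Slc37a4. Depth differed between these clusters too. The median UMIs of clusters 8, 6 and 7, with 1231, 972 and 819 CPM of Pck1, were 2.11, 2.02 and 1.73 times those of their samples. Clusters 10 and 1 were at 1.40 and 1.41 times, with 1047 and 558 CPM, and the shallower clusters 2, 12, 5 and 4, at 0.835 to 0.717 times, had 599 to 537 CPM, with 681 CPM in cluster 3 at 0.547 times. The part of depth in these levels was not tested. Angptl4, Tmem252 and Osgin1 led cluster 8, where Pck1 was itself among the 10 leading genes.

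**Figure D3:**
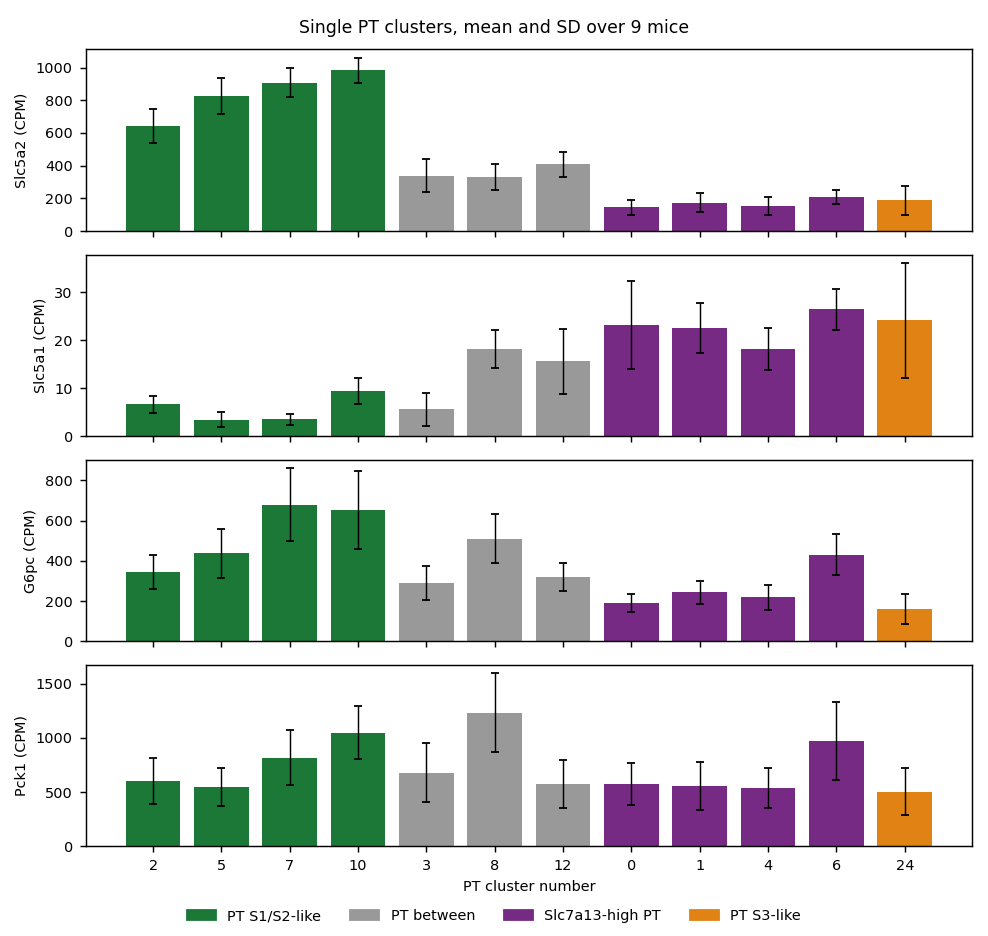
CPM of Slc5a2, Slc5a1, G6pc and Pck1 (y axes) in each of the 12 PT clusters (x axis, cluster number), as mean and SD over 9 mice, coloured by population. Slc5a2 separates the S1/S2-like from the other clusters, and Pck1 is highest in cluster 8 with 1231 CPM.

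Whether cisplatin or EGT moved the 8 genes was asked in PT cells as a whole, in 3 PT populations, in LOH and in DCT, with counts summed per mouse and edgeR's quasi-likelihood test over all genes. Changes with cisplatin are those of AKI-CKD from Control mice, and changes with EGT those of EGT from AKI-CKD mice. No member of the set passed an adjusted p of 0.05 in any of these populations in either comparison, and DESeq2 called none of the 8, while calling 220 and 479 of all genes in PT cells. By edgeR, 0.0385% of 18174 genes were called in PT cells with cisplatin, 0.0183% in S1/S2-like, 0.0754% in Slc7a13-high and 0% in S3-like, LOH and DCT cells, and with EGT 0.0609% in LOH and 0% elsewhere. At an unadjusted p under 0.05, edgeR listed with cisplatin 0 of 8 members in PT cells (11.3% of all genes), 0 in S1/S2-like (12.2%) and Slc7a13-high cells (10.7%), Pck1 in S3-like cells (6.65%), Slc5a1, Slc2a1 and Pck1 in LOH (10.4%) and Slc2a1 and Pck1 in DCT cells (8.68%). With EGT it listed Slc37a4 in PT (15.2%), S1/S2-like (14.4%) and Slc7a13-high cells (15.1%), G6pc in S3-like cells (12.3%) and no member in LOH (14.6%) or DCT cells (12.3%). The comparisons share the AKI-CKD mice, so that their values are not independent of each other. Fewer cells of a kind and less RNA per cell within a summed population cannot be told apart, and RNA of other cells may be part of every value.

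Slc5a2 in PT cells was at 521, 459 and 404 normalised CPM (scaled by TMM) in Control mice 1 to 3, at 547, 773 and 536 in AKI-CKD mice, and at 582, 411 and 445 in EGT mice. Every AKI-CKD mouse stood above every Control mouse, with AKI-CKD mouse 2 far above the rest, while the EGT values overlapped both groups. The log2 change was 0.42 ± 0.19 (SE) with cisplatin (edgeR, adjusted p = 0.448) and -0.37 ± 0.19 with EGT (edgeR, adjusted p = 0.385). With 1 mouse left out it ranged from 0.24 to 0.52 and from -0.51 to -0.19, with both smallest changes without AKI-CKD mouse 2. With library sizes that leave out mitochondrial, ribosomal protein and Malat1 counts the cisplatin change was 0.33 and the EGT change -0.15. The medians of all genes in PT cells were then -0.10 and 0.22, against -0.01 in both comparisons at the main scaling. Of PT cells, 43.8 to 47.6% were S1/S2-like in Control mice, 46.7 to 53.5% in AKI-CKD mice and 39.6 to 51.0% in EGT mice, and their part in the PT value was not tested. Within S1/S2-like cells alone, Slc5a2 was at 797 to 826 normalised CPM in Control and 918 to 1133 in AKI-CKD mice, again without overlap (log2 0.29 ± 0.16, edgeR, adjusted p = 0.451).

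In PT cells 2 of 8 members, Slc5a2 and Slc2a1, were higher in every AKI-CKD than in every Control mouse, where 11.4% of all genes were. Slc2a1 was at 4.35, 3.99 and 4.15 normalised CPM in Control, 4.41, 5.89 and 5.50 in AKI-CKD and 6.50, 5.12 and 6.82 in EGT mice. AKI-CKD mouse 1 was next to the highest Control mouse, and the mean over mice lies under that of T and B cells. In S1/S2-like cells 3 of 8 members were higher without overlap (Slc5a2, Slc2a1 and Slc37a4), against 12.6% of all genes, and in Slc7a13-high cells Slc2a1 alone was, against 9.39%.

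Slc37a4, the glucose-6-phosphate transporter, was the single member with an unadjusted p under 0.05 in PT cells, with EGT. Control mice had 149, 171 and 182 normalised CPM, AKI-CKD mice 188, 174 and 219, and EGT mice 170, 126 and 107. Each EGT mouse was lower than each AKI-CKD mouse, the nearest pair being AKI-CKD mouse 2 and EGT mouse 1, and EGT mice 2 and 3 were lower than all Control mice. The log2 change with EGT was -0.53 ± 0.18 (edgeR, adjusted p = 0.246). With the same other library sizes, which moved the median of all genes in PT cells by 0.23 in this comparison, it was -0.31. It was the 1 of 8 members lower without overlap in PT cells (10.8% of all genes), in S1/S2-like cells (10.3%) and, of 6 members tested, in S3-like cells (8.5%), while in Slc7a13-high cells the groups overlapped (95.1 to 141 in EGT and 127 to 172 normalised CPM in AKI-CKD mice). Other values of PT cells separated the same mice. Mitochondrial UMIs made up 3.43 to 6.10% in EGT and 1.92 to 3.04% in AKI-CKD mice, and haemoglobin genes summed to 4.60 to 36.3 against 0.0860 to 1.00 CPM. EGT mouse 3, the lowest for Slc37a4, had 30.4% of its PT cells in the clusters between the segments, against 10.7 to 15.6% in the other 8 mice. The part of these in the Slc37a4 values was not tested. In S1/S2-like cells the log2 change was -0.51 ± 0.17 (edgeR, adjusted p = 0.244), and it was -0.68 (edgeR, adjusted p = 0.0476) when EGT mouse 1 was left out. Leaving out this mouse raised calls in general: over all genes of PT cells they went from 0 to 128. The share of all S1/S2-like genes called without it is not given here.

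The other members overlapped between groups in PT cells. G6pc ranged from 241 to 610 normalised CPM in Control, 461 to 528 in AKI-CKD and 259 to 531 in EGT mice, with log2 changes of 0.22 ± 0.32 and -0.40 ± 0.32. Pck1 ranged from 532 to 1258 in Control, 662 to 775 in AKI-CKD and 597 to 932 in EGT mice, with log2 changes of -0.33 ± 0.28 and 0.05 ± 0.28. For Fbp1 the log2 changes were 0.17 ± 0.21 and -0.27 ± 0.21, for Slc2a2 0.09 ± 0.16 and -0.25 ± 0.16, and for Slc5a1 -0.04 ± 0.27 and -0.10 ± 0.27, with adjusted p of 0.464 to 0.965 in edgeR for these 5 genes. With 1 mouse left out, Fbp1 ranged from 0.05 to 0.26 with cisplatin and from -0.39 to -0.07 with EGT. Slc2a2 ranged from 0.04 to 0.17 and from -0.40 to -0.10 in the same order. The spread within Control was as wide as any difference between groups for G6pc and Pck1.

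Control mouse 1 set much of that spread. Its PT cells had the highest Pck1 (1258 normalised CPM) and the lowest G6pc (241) of all 9 mice, with Irs2, an insulin receptor substrate, at 164 against 16.5 to 34.9 in the other 8 mice and Txnip, a glucose-responsive gene, at 195 against 34.6 to 75.4. Without this mouse the log2 change with cisplatin was 0.01 for Pck1 and -0.07 for G6pc. Its Pck1 was also highest in T and B cells, at 828 CPM against 257 to 521 in the others.

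**Figure D4:**
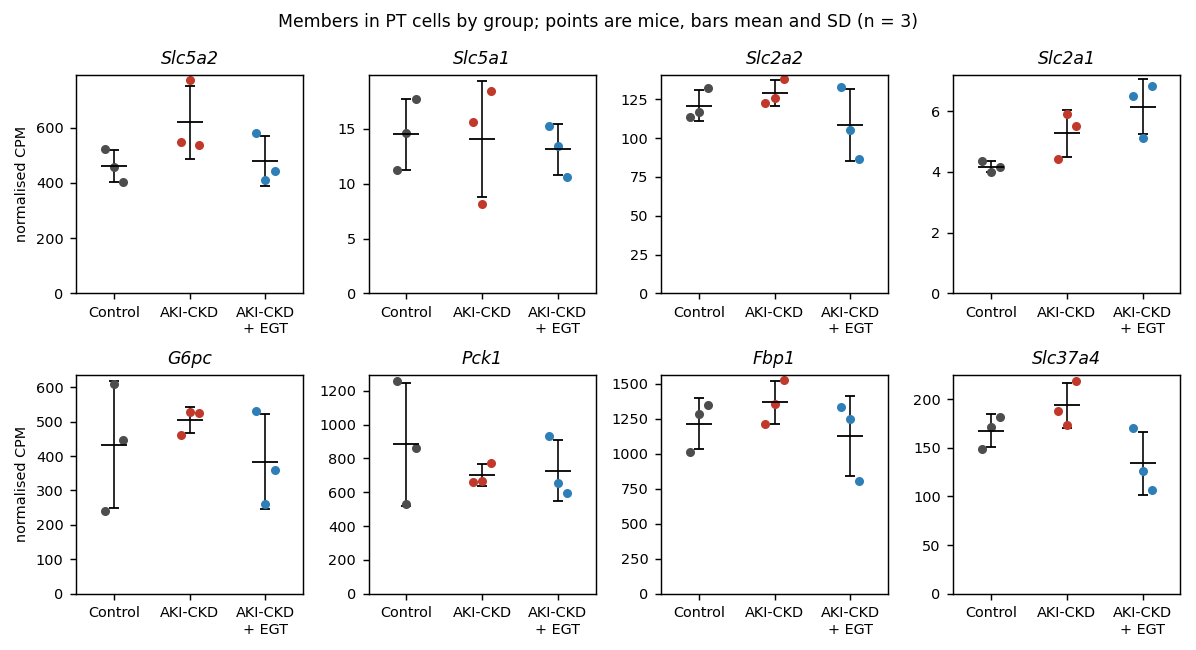
Normalised CPM of the 8 genes in PT cells (y axes from 0) in Control, AKI-CKD and EGT mice; points are mice and bars the mean and SD (n = 3). Slc37a4 lies lower in all 3 EGT than in all 3 AKI-CKD mice, and Pck1 and G6pc spread widest in Control.

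S3-like cells were few, and Slc5a1 and Slc2a1 did not pass the filter on low counts, so that 6 of 8 members were tested. Pck1 had the lowest unadjusted p with cisplatin. Its levels were 1172, 401 and 581 normalised CPM in Control and 382, 380 and 422 in AKI-CKD mice, which overlapped (log2 -0.85 ± 0.33, edgeR, adjusted p = 0.739), and Control mouse 1 was again the highest. G6pc was at 52.1, 122 and 143 in AKI-CKD and 273, 127 and 292 in EGT mice, which overlapped too (log2 1.04 ± 0.40, edgeR, adjusted p = 0.288). Slc37a4 was higher in each AKI-CKD than in each Control mouse, where 6.05% of genes were.

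In LOH cells, the cell type with the highest level of Slc5a1 RNA, Slc5a1 was at 61.6, 118 and 79.2 normalised CPM in Control, 160, 148 and 121 in AKI-CKD, and 146, 82.3 and 107 in EGT mice. AKI-CKD mice were all above Control mice, the nearest pair being AKI-CKD mouse 3 and Control mouse 2, and EGT mice overlapped both groups. The log2 change was 0.72 ± 0.24 with cisplatin (edgeR, adjusted p = 0.351) and -0.37 ± 0.24 with EGT (edgeR, adjusted p = 0.499). With 1 mouse left out it ranged from 0.52 to 1.02 and from -0.58 to -0.20. In cluster 17, with least Slc5a1, the Control mice ranged from 7.06 to 16.6 CPM and the AKI-CKD mice from 21.0 to 46.1, while in clusters 14 and 18 the groups overlapped, with 41.5 to 156 against 149 to 191 CPM and 162 to 170 against 165 to 245 CPM. LOH markers stood apart between these groups in cluster 17, with Umod at 644 to 857 CPM in Control and 1727 to 3013 CPM in AKI-CKD mice and Slc12a1 at 141 to 332 and 451 to 783 CPM, and also in cluster 14, with Umod at 5150 to 7704 and 9994 to 10440 CPM and Slc12a1 at 1221 to 2227 and 2644 to 3013 CPM. Their part in the Slc5a1 values was not tested. Cluster 17 held 94 to 208 cells per Control and 45 to 161 per AKI-CKD mouse, so its Slc5a1 values rest on few UMIs. The share of all genes that stood apart between the groups in cluster 17 was not determined.

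Slc2a1 in LOH cells was at 21.5, 23.0 and 28.4 normalised CPM in Control, 36.6, 41.2 and 35.6 in AKI-CKD, and 43.2, 27.9 and 26.0 in EGT mice. Control and AKI-CKD mice did not overlap (log2 0.66 ± 0.24, edgeR, adjusted p = 0.393). So 2 of 8 members were higher in all AKI-CKD mice in LOH cells, against 8.63% of all genes, and 0% of 9853 genes were called there. The same gene in DCT cells was at 20.2, 23.0 and 15.8 in Control, 30.2, 42.4 and 36.2 in AKI-CKD, and 30.6, 24.5 and 24.2 in EGT mice. Every AKI-CKD mouse was above every Control mouse, as for 8.26% of all genes in DCT cells, with a log2 change of 0.87 ± 0.23 (edgeR, adjusted p = 0.430) that was -0.46 ± 0.22 with EGT (edgeR, adjusted p = 0.412).

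Other RNA in these cells moved with the same groups. The summed level of the 8 LOH markers in LOH cells was 9405 to 16151 CPM in Control and 16153 to 19082 CPM in AKI-CKD mice. The summed level of 12 PT markers, none of them at 0, was 54372 to 63723 CPM in LOH cells of Control and 25078 to 57980 CPM in those of AKI-CKD mice, and 39660 to 62963 against 17430 to 37498 CPM in DCT cells. In PT cells themselves the same sum was 118422 to 144659 CPM in Control and 77830 to 120627 CPM in AKI-CKD mice. The 8 DCT markers in DCT cells overlapped, with 7261 to 8852 CPM in Control and 7439 to 8099 CPM in AKI-CKD mice. With EGT they separated, at 8372 to 10790 CPM, and so did the DCT markers in LOH cells, at 710 to 856 CPM in EGT and 415 to 591 CPM in AKI-CKD mice. The part of these in the LOH and DCT values was not tested. Pck1 had log2 changes of -0.91 ± 0.34 in LOH and -0.91 ± 0.40 in DCT cells (edgeR, adjusted p = 0.393 and 0.562), which were -0.21 and -0.03 without Control mouse 1, where it was at 781 and 751 normalised CPM. Its level stood above that of T and B cells in only 1 of 9 mice in LOH (0.788-fold, adjusted p = 0.0795, exact test). The same count held in DCT cells (0.676-fold, adjusted p = 0.0296, exact test). In LOH cells Pck1 was higher in each EGT (342 to 444) than in each AKI-CKD mouse (169 to 341), where 8.99% of genes were.

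**Figure D5:**
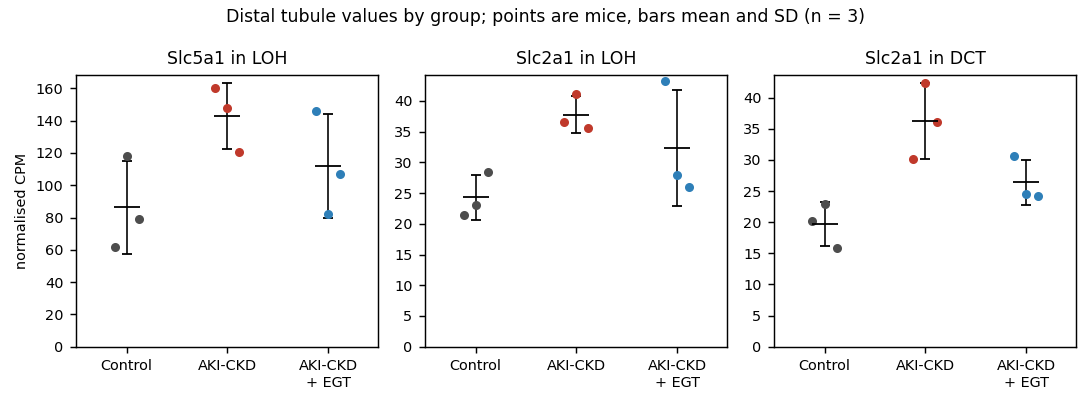
Normalised CPM (y axes from 0) of Slc5a1 in LOH, Slc2a1 in LOH and Slc2a1 in DCT cells in the 3 groups; points are mice and bars the mean and SD (n = 3). In each panel the 3 AKI-CKD mice lie above the 3 Control mice, and EGT mice overlap at least 1 of the other groups.

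Genes around the 8 were read from fixed lists in PT cells, and none passed an adjusted p of 0.05 in edgeR in either comparison. Of all 18174 genes tested, 8724 had a positive log2 change with cisplatin (median -0.01) and 8938 with EGT (median -0.01). With the library sizes named above these counts were 6605 (median -0.10) and 14368 (median 0.22). The counts of positive genes thus depend on the scaling in both comparisons, and those that follow are at the main scaling. Of the 8 members, 6 were positive in the first (median 0.19) and 2 in the second (median -0.26). Of 25 other gluconeogenic and entry enzymes tested, 22 were positive in the first (median 0.17) and 1 in the second (median -0.22). At an unadjusted p under 0.05, 3 of them were higher and 1 lower in the first, and 0 were higher and 2 lower in the second, against 11.3% and 15.2% of all genes in either direction. Gpd1, which links glycerol to the pathway, had a log2 change of 0.41 ± 0.15, and Tpi1, triosephosphate isomerase, 0.36 ± 0.16 with cisplatin (edgeR, adjusted p = 0.390 and 0.435). Pcx, pyruvate carboxylase, had -0.45 ± 0.15 with EGT (edgeR, adjusted p = 0.244).

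Other sugar transporters were positive in 6 of 14 and 5 of 14 genes in the same order of comparisons. Slc5a11, an inositol and sugar cotransporter, had log2 changes of 0.40 ± 0.13 and -0.46 ± 0.13 (edgeR, adjusted p = 0.358 and 0.217), and the mannose and fructose cotransporter Slc5a10 had -0.09 ± 0.32 and -0.51 ± 0.33. Of the SGLT partners 3 of 4 and 1 of 4 were positive, with Pdzk1ip1 (MAP17, the SGLT2 partner protein) at 0.40 ± 0.19 and -0.45 ± 0.19 and Smim24 at 0.42 ± 0.20 and -0.41 ± 0.20. Glycolytic genes were positive in 9 of 18 and 11 of 18, with Pfkl, a phosphofructokinase, at 0.42 ± 0.11 with cisplatin (edgeR, adjusted p = 0.307). Regulators were positive in 8 of 25 and 12 of 25: Irs2 had -2.14 ± 0.59, which Control mouse 1 leads, Esrra 0.44 ± 0.13 and Sgk1, a kinase of sodium transport, 0.57 ± 0.33 in the first, and Sgk1 -1.09 ± 0.34 in the second (edgeR, adjusted p of 0.231 to 0.521). Immediate early and heat shock genes, which mark dissociation stress, were positive in 12 of 15 and 7 of 15, with Hspa1a at -1.53 ± 0.56 in the second.

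The share of PT cells with a UMI of each gene was compared as well. In cells thinned to 1000 UMIs, Slc5a2 was found in 31.3% ± 3.47 of PT cells of Control mice, 37.4% ± 5.49 of AKI-CKD mice and 34.1% ± 3.73 of EGT mice (SD, n = 3), with exact permutation p = 0.2 and 0.5, where 3 mice against 3 cannot go below 0.1. Slc37a4 was found in 14.7% ± 1.54, 15.7% ± 1.93 and 12.4% ± 2.12, with exact permutation p = 0.5 and 0.2. No gene had a p under 0.2 in thinned cells, and without thinning only Slc2a1 reached 0.1, in both comparisons, at shares of 1.47%, 1.77% and 2.40% against 3.34% in T and B cells.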

How the data were processed

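Droplet scRNA-seq had been performed on kidney tissue of 9 mice, and for each mouse the authors deposited raw UMI counts per gene and barcode, neither normalised nor pooled, made per the file headers with PISA 1.0 on GRCm39 (submitters' processing notes). The aligner, annotation and cell calling are not given in the sources used here. Cells with at least 1000 UMIs, 500 genes and at most 15% mitochondrial UMIs were kept. With scanpy 1.11.5 (Python 3.11.15), 2000 variable genes without the glucose, mitochondrial and ribosomal genes gave 30 principal components, corrected by a Harmony implementation, 20 neighbours and Leiden clusters at resolution 1.1. Clusters were named from marker lists. The naming thresholds, and the split of late PT cells into Slc7a13-high and S3-like, were set after the clusters were seen. Scrublet called 0 to 1 doublets in a library, which is no working result, so doublets were kept, and cells with the 6% highest scores were left out as an alternative.

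Counts were summed per mouse and population and tested with edgeR 4.0.16 (R 4.3.3): filterByExpr, TMM, quasi-likelihood F test on all 9 mice, Benjamini-Hochberg adjustment over all genes tested, called under 0.05. On simulated counts with 200 genes changed 2-fold, 90 of them were called in PT cells (7 false calls, 18174 genes) and 92 in LOH cells (9 false calls, 9853 genes). Levels in cell types are plain CPM in mice with at least 20 cells. p-values measure the spread between these mice, shares and levels carry counting error, and libraries were compared at their own depth unless thinned. Replicate numbers gave no sign of pairing the mice, as given below, and were not used to pair them in the main tests. Settings tried instead were DESeq2 1.42.0, no filter, other library sizes, 6 mice, a replicate block, each mouse left out, 10% mitochondrial UMIs, all variable genes, resolution 0.6, and a pseudocount of 5 CPM. Counting the haemoglobin-led cluster as PT was added after seeing the data, as were the comparisons with Slc7a13-high cells and with T and B cells.

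Named genes are the 8 members, up to 2 genes each way per further list with the largest log2 change in PT cells (mean log2 CPM 4 or more), and the 3 genes with the highest r to each member among genes of at least 10 CPM in a cell type. A few genes that this rule picks are not reported here. The members and lists were chosen with earlier results of these data known.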

Additional observations from a re-analysis of the deposited data

How the results depend on the processing

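No member was called between groups in edgeR with other library sizes, the 6 mice alone, 10% mitochondrial UMIs, the highest Scrublet scores left out, other clusterings or the haemoglobin-led cluster counted as PT, nor with DESeq2. With no filter on low counts, 1 member, Pck1, was called in LOH with cisplatin (log2 -0.92, adjusted p = 0.00105) and with EGT (0.68, adjusted p = 0.0264), and 1, again Pck1, in DCT with cisplatin (-0.90, adjusted p = 0.00781). The cause was not tested. The share of all genes called in LOH and DCT cells at this setting is not given here. With the filter, the log2 change of Pck1 with cisplatin was only -0.21 in LOH and -0.03 in DCT cells without Control mouse 1. The level of Pck1 stood above that of T and B cells in only 1 of 9 mice in each of these cell types. With each mouse left out, 0 to 1 members were called in S1/S2-like cells with EGT, the 1 being Slc37a4 without EGT mouse 1. The share of all S1/S2-like genes called without that mouse is not given here. Over all genes of PT cells, edgeR called 7 with cisplatin, and 220 were called by DESeq2, 93 with no filter, 0 with the 6 mice and 0 to 12 with a mouse left out (0 without Control mouse 2, 12 without EGT mouse 3). In the EGT comparison it called 0, and 479 were called by DESeq2, 237 with no filter and 0 to 128 with a mouse left out, the 128 without EGT mouse 1.

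The sign of small log2 changes in PT cells turned with a mouse left out: with cisplatin Slc5a1 ranged from -0.28 to 0.24 (positive without Control mouse 3 or AKI-CKD mouse 2), G6pc from -0.066 (without Control mouse 1) to 0.55 and Pck1 from -0.59 to 0.0091 (without Control mouse 1), and with EGT Slc5a1 from -0.38 to 0.14 (positive without AKI-CKD mouse 3 or EGT mouse 3) and Pck1 from -0.14 (without EGT mouse 1) to 0.19. Library sizes without mitochondrial, ribosomal protein and Malat1 counts moved the median log2 change of all genes in PT cells by -0.084 with cisplatin and 0.23 with EGT, where 14368 genes instead of 8938 were then positive, and 3 instead of 2 members. Slc5a1 was then at 0.12 with EGT, Slc5a2 at -0.15 and Slc37a4 at -0.31, beside the median of 0.22. The difference of Slc2a1 between S1/S2-like and S3-like cells was -0.93 to -0.60 with a mouse left out, with adjusted p of 0.0547 to 0.0859 in 7 of these 9 exact tests. All variable genes and resolution 0.6 gave no S3-like cluster, so that comparison was not run there.

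Mice with the same number in different groups gave no sign of deviating together from their group means: of 9 such pairs in PT cells 1 had r over 0.1 (range -0.43 to 0.33). The 18 pairs with different numbers had r of -0.32 to 0.43, a spread as wide, so these values cannot exclude shared handling by number. With the replicate number as a block, edgeR called 0 genes in PT cells with cisplatin and 0 members in any population. Slc5a1 and Slc2a1 failed the filter on low counts in S3-like cells, of which there were 20 to 139 per mouse, at median depths of 2202 to 3766 UMIs.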
